A study of Mus musculus with 2 samples.

Results

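The imprinted Dlk1-Dio3 region of mouse chromosome 12 carries microRNA genes on its maternally expressed strand, and 9 of them lie close to the noncoding RNA genes Meg3 and Rian, outside the group antisense to Rtl1 and outside the Mir379-Mir410 cluster. They are Mir770, Mir673, Mir493, Mir337, Mir540, Mir665, Mir3070a, Mir341 and Mir370. They were chosen by symbol, through the Ensembl identifiers of the count files, and all 9 were found among 1973 counted genes. The rule is written in terms of symbol and position, not counts. The list was nonetheless chosen with earlier results of these data known, and other counted genes of the same stretch are not on it. Short RNA was sequenced from 2 samples of embryonic liver, the only group of the study, with no treatment and no control. The embryos were of strain B6NCrl, of both sexes and healthy, at day 11.5. Replicate 1 was made from 109 embryos, and the labels give no number for replicate 2.

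Imprinted genes are read from the copy of a single parent. On the maternal chromosome, Meg3, Rian and Mirg are transcribed in the same direction and release microRNAs and small nucleolar RNAs, while the paternal chromosome expresses Dlk1, Rtl1 and Dio3. A microRNA is cut from a hairpin, and either arm of the hairpin can yield a mature strand of about the length of a short read. Its seed, bases 2 to 8 from the 5′ end, pairs with target messenger RNAs. In the mouse fetal liver the maternal microRNAs of this region are known from blood stem cells, and Dlk1 from the immature liver epithelium. The reads do not tell the parental copies apart, so imprinting itself was not measured.

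The 5 most abundant of the 9 genes are shown by their mature sequences, the annotated products of their hairpins. How many of the counted reads were these strands cannot be read from counts per gene. Sequences are from RefSeq on GRCm38.p6 (mm10), where all 9 genes were matched, and each is written 5′ to 3′ with the seed in capitals.
miR-337-5p: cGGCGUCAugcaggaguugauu
miR-337-3p: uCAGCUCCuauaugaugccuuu
miR-665-5p: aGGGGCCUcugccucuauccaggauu
miR-665-3p: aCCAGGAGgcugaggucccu
miR-341-5p: cGGUCGGCcgaucgcucgguc
miR-341-3p: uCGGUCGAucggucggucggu
miR-540-5p: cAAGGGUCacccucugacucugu
miR-540-3p: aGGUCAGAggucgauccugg
miR-370-5p: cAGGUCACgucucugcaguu
miR-370-3p: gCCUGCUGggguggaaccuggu

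The 9 hairpins yield 18 mature strands with 18 different seeds, so no seed was shared between the genes. Of the 18 strands, 13 had a seed that no other mouse gene in the RefSeq table carried. Mature lengths ran from 19 to 26 bases. The strands were rich in G and C, with a median of 59.5% against 52.2% over 1738 mature strands in the table. This was not particular to the 9 genes. By hairpin, the median was 55.7% for the 9 and 56.5% for 5 detected genes of the Rtl1 antisense group. It was 43.4% for 29 detected genes of the Mir379-Mir410 cluster and 51.7% over 1005 hairpins in the table. The counts are given per gene and do not say which arm a read came from.

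Replicate 1 held 3344673 reads assigned to microRNA genes on their own strand and replicate 2 held 1584499, which is 26.2% and 29.0% of all their reads. Levels are given as CPM, the count of a gene per 1000000 such assigned counts of its library. A count of 0 would allow up to 3 counts, or 0.897 CPM in replicate 1 and 1.89 CPM in replicate 2. Intervals and this limit cover counting error only. Liver markers were present: the 5 hepatocyte genes, led by Mir122, summed to 33047 and 36867 CPM in replicates 1 and 2, with 3 of 5 detected at 10 or more counts in both libraries. The 2 erythroid genes summed to 7954 and 11007 CPM and the endothelial gene Mir126a stood at 57443 and 80051 CPM. The 7 neural markers summed to 77.7 and 77.6 CPM, with 2 detected by the same limit and 3 at 0. The 7 striated muscle markers summed to 718 and 637 CPM, with 4 detected and 3 at 0. The neural, muscle and hepatocyte lists hold numbered copies of the same microRNA, and reads that match several places were not counted. Their sums can therefore be too low, and low values do not show that a cell type was absent. The size of this loss was not tested.

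Each of the 9 genes passed the limit for detection, 10 counts or more in both libraries, as did 347 of the 1973 counted genes (17.6%). The list was chosen with earlier results of these data known, so its detection is not a result about the group. Among counted genes of the same stretch that are not on it, Mir1188 passed, and Mir1906-1, Mir3070b and Gm23912 did not. The highest mean level was 199 times the lowest. Mir337, Mir665, Mir341, Mir540 and Mir370 lay above 1000 CPM in both libraries, Mir770, Mir493 and Mir673 lay between 396 and 586 CPM, and Mir3070a lay near 20 CPM. The samples are described as liver, a tissue of several cell types, so fewer cells of a type and less RNA per cell cannot be told apart.

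**Figure D1:**
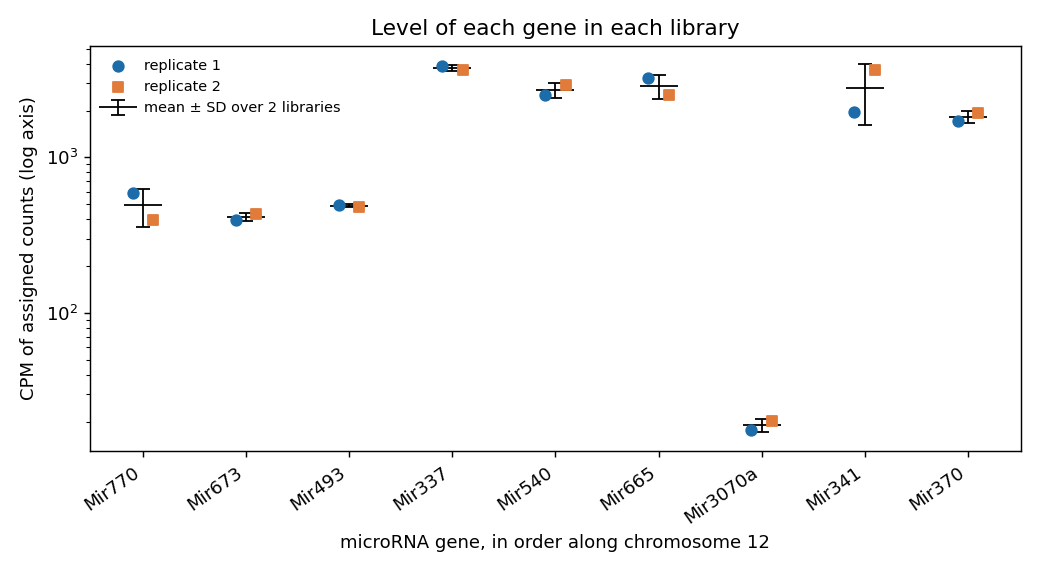
Level of the 9 microRNA genes, in order along chromosome 12, as CPM on a log axis; circles are replicate 1, squares replicate 2, and bars the mean ± SD over both libraries. Mir337, Mir540, Mir665, Mir341 and Mir370 stand above 1000 CPM, while Mir3070a stands near 20 CPM.

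The genes at the Meg3 end were of moderate level. Mir770 (ENSMUSG00000076451.1, chr12:109563692-109563785, plus strand) lies inside Meg3, a long RNA that acts on growth and chromatin. Of the 4 Meg3 transcripts of GENCODE M21 that span it, 3 have it in an intron and 1 in an exon. It had 1959 counts or 586 CPM in replicate 1 and 629 counts or 397 CPM in replicate 2, a mean of 491 ± 133 CPM (SD, n = 2). The counting intervals, 560 to 612 CPM and 367 to 429 CPM, did not overlap, and replicate 1 was the higher.

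Mir673 (ENSMUSG00000076316.1, chr12:109571990-109572080, plus strand) starts 264 bases past the end of Meg3, with no other gene over it in M21. Its levels were 396 CPM from 1324 counts in replicate 1 and 431 CPM from 683 counts in replicate 2, a mean of 413 ± 24.9 CPM (SD, n = 2). The counting intervals, 375 to 418 CPM and 399 to 465 CPM, overlapped. Mir493 (ENSMUSG00000077025.2, chr12:109580233-109580315, plus strand) follows 8152 bases further on, also outside other genes. Its human counterpart is known from colon cancer cells as a repressor of the growth factor receptor gene IGF1R. Mir493 was nearly level between the libraries, with 497 CPM from 1661 counts in replicate 1 and 480 CPM from 760 counts in replicate 2, a mean of 488 ± 12 CPM (SD, n = 2).

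Next came a compact trio near Rtl1 with means between 2719 and 3766 CPM. Mir337, Mir540 and Mir665 lie within 619 bases, at chr12:109585789-109586407, with gaps of 194 and 167 bases between neighbours. All 3 are on the plus strand, and the nearest, Mir665, ends 2786 bases before the span of Rtl1, a retrotransposon-derived gene of the placenta read from the other strand. Mir337 (ENSMUSG00000065526.3, chr12:109585789-109585885) led with 12978 counts or 3880 CPM in replicate 1 and 5786 counts or 3652 CPM in replicate 2, a mean of 3766 ± 162 CPM (SD, n = 2). It ranked 58 of 1973 by mean, above 83.5% of the other detected genes.

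Mir540 (ENSMUSG00000072900.1, chr12:109586080-109586146) stood at 2502 CPM from 8368 counts in replicate 1 and at 2937 CPM from 4653 counts in replicate 2, a mean of 2719 ± 307 CPM (SD, n = 2). Mir665 (ENSMUSG00000076313.1, chr12:109586314-109586407) stood at 3228 CPM from 10796 counts in replicate 1 and at 2530 CPM from 4008 counts in replicate 2, a mean of 2879 ± 494 CPM (SD, n = 2). These neighbours changed places: Mir665 was the higher in replicate 1 and Mir540 in replicate 2. Set against Mir337 of the same library, which takes depth out, Mir540 had 64.5% as many counts in replicate 1 and 80.4% in replicate 2. Mir665 had 83.2% and 69.3% as many. The trio together made up 65.1% of the counts of the 9 genes in replicate 1 (95% exact Clopper-Pearson interval 64.6 to 65.5) and 57.0% in replicate 2 (56.4 to 57.6).

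Mir3070a was the low member. It lies at chr12:109587943-109588031 (ENSMUSG00000095147.1, plus strand), 1535 bases past Mir665 and 1162 bases before the span of Rtl1. It had 59 counts or 17.6 CPM in replicate 1 (exact Poisson interval 13.4 to 22.8 CPM) and 32 counts or 20.2 CPM in replicate 2 (13.8 to 28.5 CPM), a mean of 18.9 ± 1.81 CPM (SD, n = 2). The intervals overlapped widely, so a difference between the libraries was not detectable at this depth. Its neighbour Mir3070b, 560 bases on, had 2 counts in replicate 1 and 1 in replicate 2, below the limit of 3 counts. The hairpins of this pair are shown because they are nearly the same, with the bases that differ in capitals.
Mir3070a: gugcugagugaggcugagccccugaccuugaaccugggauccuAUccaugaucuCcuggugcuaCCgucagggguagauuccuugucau
Mir3070b: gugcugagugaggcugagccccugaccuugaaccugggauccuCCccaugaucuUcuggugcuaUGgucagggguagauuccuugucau

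Of 89 bases, 5 differed, and the longest identical stretch was 43 bases. The 5p mature strand is identical in both, so a read of it matches both places and would fall in the class of reads that map to several places, which held 22.0% of the reads of replicate 1 and 22.6% of replicate 2. The counts of Mir3070a can therefore be too low, by an amount the files do not give. None of the other 8 hairpins shared a stretch of 20 bases with another counted gene matched in GENCODE M21 (1894 of 1973). The unmatched genes were not compared.

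Inside Rian, both genes were abundant. Rian is a long noncoding RNA and host of small nucleolar RNAs, and Mir341 and Mir370 lie in introns of the 2 of its 20 M21 transcripts that span them. Mir341 (ENSMUSG00000070101.1, chr12:109611500-109611595, plus strand), a rodent microRNA, had 6566 counts or 1963 CPM in replicate 1 and 5737 counts or 3621 CPM in replicate 2, a mean of 2792 ± 1172 CPM (SD, n = 2). It had the widest spread of the 9 genes and ranked 81 of 1973 in replicate 1 and 62 in replicate 2. Against Mir337 of the same library it had 50.6% as many counts in replicate 1 and 99.2% in replicate 2. Its share of the counts of the 9 genes was 13.3% in replicate 1 (exact Clopper-Pearson interval 13.0 to 13.6) and 22.6% in replicate 2 (22.1 to 23.2).

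The hairpin of Mir341 is built of short repeats, and is shown with each GGUC in capitals.
Mir341: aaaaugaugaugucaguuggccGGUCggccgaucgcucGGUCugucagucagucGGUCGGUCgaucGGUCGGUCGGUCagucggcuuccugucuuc

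GGUC, searched on the strand of the hairpin with overlaps allowed, occurred 7 times, the highest number among 1005 mouse hairpins in the RefSeq table, of which 0.0995% had as many. The median over all hairpins was 0. Mir540 had 3 and Mir665 had 2. A match of letters is a description of the sequence, and its bearing on the counts was not tested.

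Mir370 (ENSMUSG00000065433.1, chr12:109618258-109618336, plus strand) lies 6662 bases past Mir341. Its human counterpart is known from HepG2 hepatoma cells as a repressor of CPT1A, the enzyme that admits long fatty acids to the mitochondrion. Mir370 had 5697 counts or 1703 CPM in replicate 1 and 3057 counts or 1929 CPM in replicate 2, a mean of 1816 ± 160 CPM (SD, n = 2). It was the median of the 9 genes by level in each library. The seed of its 5p strand, AGGUCAC, was also carried by miR-1193-3p, whose gene Mir1193 lies on the same chromosome in the Mir379-Mir410 cluster.
miR-370-5p: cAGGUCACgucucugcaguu
miR-1193-3p: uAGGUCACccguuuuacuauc

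Mir1193 had 2176 CPM in replicate 1 against 3842 CPM in replicate 2, a level of the same order as that of Mir370. How many of these reads were the strands with the shared seed cannot be read from counts per gene. Seeds of 2 further genes had a partner outside the region: miR-673-5p shared its seed with miR-6985-3p, whose gene had 1 count in replicate 1 and 0 in replicate 2, and miR-540-3p with miR-6915-5p, whose gene was not among the counted ones. Both mature strands of Mir3070a shared their seeds with those of Mir3070b.

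By mean CPM the order was Mir337, Mir665, Mir341, Mir540, Mir370, Mir770, Mir493, Mir673 and Mir3070a. Of the 8 steps in this order, 5 were larger than the spread between libraries, meaning that the values of both libraries did not overlap. The steps from Mir665 to Mir341, from Mir341 to Mir540 and from Mir770 to Mir493 were not resolved, and each turned round between the libraries. The widest step was that from Mir673 to Mir3070a, with 22.4 times as many counts in replicate 1 and 21.3 times in replicate 2. The next was from Mir370 to Mir770, at 2.91 and 4.86 times. A short read covers a whole mature microRNA, so CPM was not divided by length. On a scale of CPM per 100 bases of the gene, Mir540 came first with 4059 ± 459 and Mir337 next with 3882 ± 167 (SD, n = 2), and 3 of the 9 genes kept their place.

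**Figure D2:**
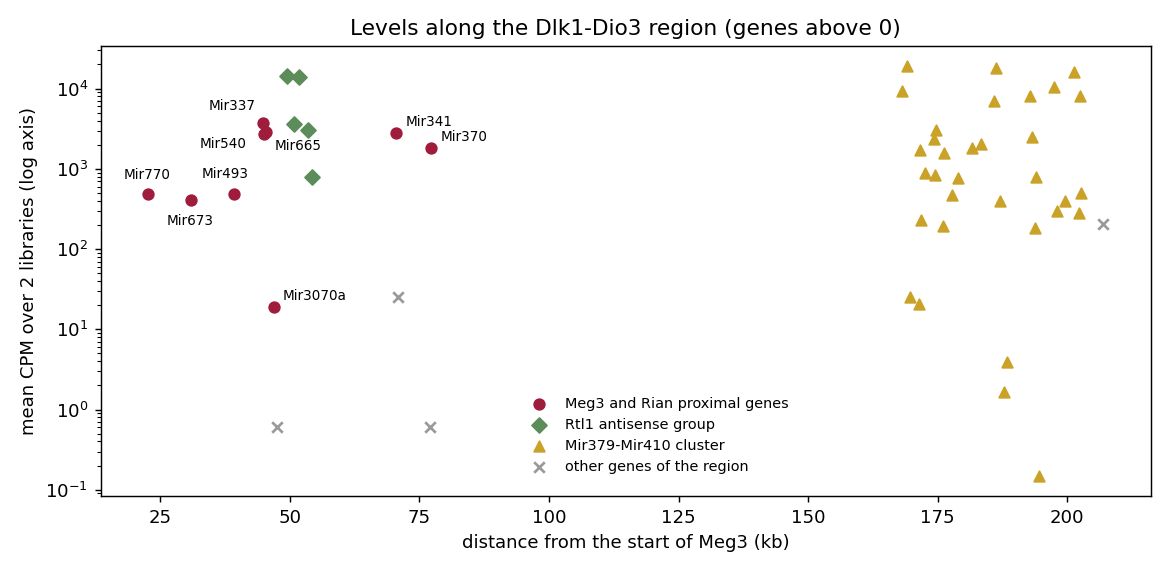
Mean CPM over both libraries, on a log axis, against distance from the start of Meg3 for the counted genes of the region with a count above 0. The 9 genes near Meg3 and Rian lie left of 80 kb. All 9 lie within the range of levels of the Mir379-Mir410 cluster shown, and 5 of them also within that of the Rtl1 antisense group.

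The 9 genes held 1.54 ± 0.0865% of all assigned counts (SD, n = 2), with 1.48% in replicate 1 (exact Clopper-Pearson interval 1.46 to 1.49) and 1.60% in replicate 2 (1.58 to 1.62). Within the 58 counted genes from the start of Meg3 to the end of Mirg they held 9.13 ± 0.668% of the counts, against 21.3 ± 0.928% for the 6 genes of the Rtl1 antisense group and 69.5 ± 0.262% for the 37 genes of the Mir379-Mir410 cluster (SD, n = 2). Of these 6, Mir3071 is annotated on the minus strand, that of Rtl1. Mir136, also listed in that group, was not among the counted genes. The 9 genes had a median level of 1816 CPM, against 3342 CPM for the Rtl1 antisense group and 759 CPM for the cluster. Mir1906-1, Mir3070b, Gm23912 and Mir1188 lie in the stretch of the 9 genes but on none of these lists. Their means were 0, 0.615, 0.615 and 25.0 CPM. The median of the 9 genes leaves such low genes out, while those of the other groups keep genes at 0. The order of these medians therefore depends on which genes are listed. Over detected genes alone, which were all 9, 5 of the 6 and 30 of the 37, the medians were 1816, 3624 and 1221 CPM. They reached 3766 CPM at most, against 14531 ± 6684 CPM for Mir431 of the Rtl1 antisense group and 18929 ± 9783 CPM for Mir411 of the cluster (SD, n = 2). Above 1000 CPM in both libraries stood 5 of the 9 genes, 4 of the 6 and 15 of the 37. More than 3 opposite-strand reads were found at 1 of the 9 genes, 1 of the 6 and 4 of the 37, and none of these reads is in the sums. In the cluster they were many. Replicates 1 and 2 had 71890 and 41355 at Gm24321, and 27148 and 20819 at Gm25252. Mir299b had 15757 and 8939, and Gm25750 had 5614 and 5974. The cluster as counted held 358522 and 202911. Its share, median and number of detected genes leave these reads out.

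The 5 genes with a human counterpart of the same number, Mir770, Mir493, Mir337, Mir665 and Mir370, made up 67.0% of the counts of the 9 in replicate 1 (exact Clopper-Pearson interval 66.6 to 67.4) and 56.2% in replicate 2 (55.6 to 56.8). The 4 known from rodents, Mir673, Mir540, Mir3070a and Mir341, made up the rest, 33.0% and 43.8%. Each of these parts held genes with a mean above 1000 CPM and genes with a mean below 500 CPM. Mir341 alone held 13.3% of the counts of the 9 in replicate 1 and 22.6% in replicate 2.

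**Figure D3:**
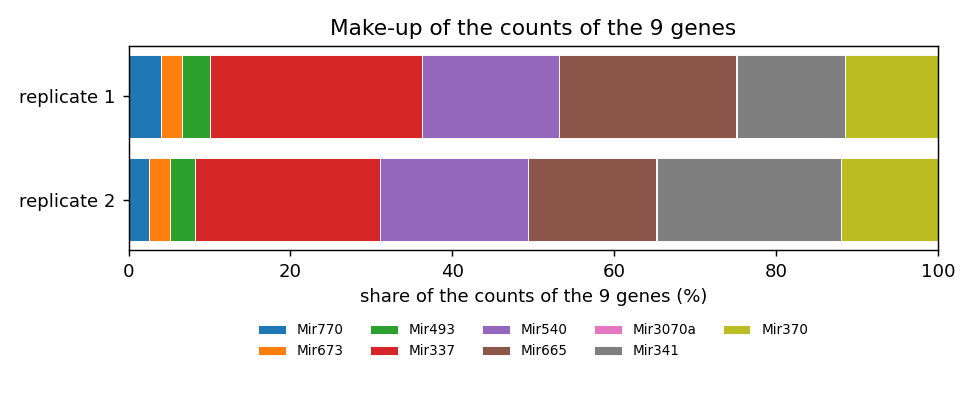
Share of each gene in the summed counts of the 9 genes, in percent, with 1 bar per library. Mir341 takes 13.3% in replicate 1 and 22.6% in replicate 2, while Mir665 takes 21.9% and 15.8%, and Mir3070a is too narrow to see.

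The libraries were compared gene by gene, to see which of the 9 lay farther apart than counting noise would put them. No gene was called at least 2-fold apart: 0 of 9, against a background of 7.27% (33 of 454 tested genes), in a two-sided exact binomial test with Benjamini-Hochberg adjustment over all 454. The test used library sizes from the trimmed mean of M values (TMM), and a call needed an adjusted p under 0.05 as well as the fold. It knows counting noise only and compares these libraries, not conditions. Of the 33, 11 were higher in replicate 1 (2.42% of those tested) and 22 in replicate 2 (4.85%), and 15 and 19 with libraries scaled by total counts. Among the 152 genes whose counts averaged 1000 or more, 5 were called, each higher in replicate 2. With so few members, 0 calls do not set the 9 genes apart from either background. At an unadjusted p under 0.05 lay 6 of the 9 genes and 243 of the 454. In edgeR's exact test, run with a biological coefficient of variation set to 0.2, 0 of the 9 and 1 of the 454 were called, and 1 of the 9 and 51 of the 454 lay under an unadjusted 0.05.

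At any fold, 6 of the 9 genes had an adjusted p under 0.05 in the exact binomial test, against a background of 49.1% (223 of 454). Mir770 and Mir665 were higher in replicate 1, as were 23.1% of all tested genes, and Mir341, Mir540, Mir370 and Mir673 in replicate 2, as were 26% of all. With libraries scaled by total counts, as CPM is, the adjusted p by the exact binomial test was 0.131 for Mir673, which then did not pass, and 0.000335 for Mir337, which then did, with a log2 ratio of 0.09. Mir341 came nearest to the fold needed, with a log2 ratio of replicate 1 over replicate 2 of -0.94 after TMM scaling, or 1.93-fold, and an adjusted p of 2.51e-277 by the exact binomial test. In CPM, without TMM scaling, its libraries were 1.84-fold apart. With the variation set to 0.2 its adjusted p by edgeR's exact test was 0.389.

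Mir770 followed, with a log2 ratio of 0.50 and an adjusted p of 3.84e-14 by the exact binomial test. Within the trio the directions differed: the log2 ratio was 0.29 for Mir665, -0.29 for Mir540 and 0.03 for Mir337. Mir370 had -0.24 and Mir673 -0.19. Mir493, with -0.01, and Mir3070a, with -0.27, did not pass the test, nor did Mir337 under TMM scaling.

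The median fold over the 9 genes, in either direction, was 1.20, against 1.34 over all 454 tested genes and 1.27 over the 152 genes whose counts averaged 1000 or more. The median log2 ratio was -0.19 for the 9 genes and -0.01 over all tested genes. Over the 48 tested genes of the whole region it was also -0.19, and there 5 genes were called, each higher in replicate 2. Pearson's r of log2(CPM + 1) between the libraries was 0.986 across the 9 genes and 0.986 across the 454, and Spearman's rho was 0.883 and 0.977. These are descriptions across genes, which share the libraries and are not independent replicates.

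**Figure D4:**
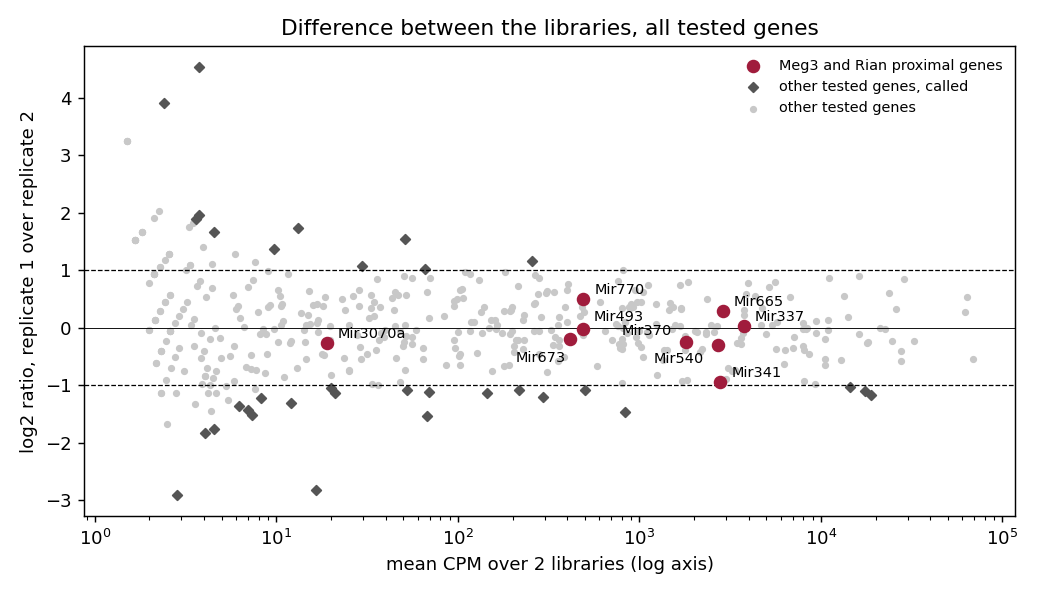
Log2 ratio of replicate 1 over replicate 2 after TMM scaling, against mean CPM on a log axis, for 454 tested genes; dashed lines mark 2-fold and diamonds the called genes. The 9 genes lie between the lines, with Mir341 at -0.94 and Mir770 at 0.50.

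By Euclidean distance in log2(CPM + 1) over the 2 libraries, the nearest to Mir337 were Mir16-1, at 3705 and 3779 CPM in replicates 1 and 2, and Mir181c, at 4162 and 3407 CPM. The nearest to Mir665 were Mir149, at 2771 and 2603 CPM, and Mir134 of the Mir379-Mir410 cluster, at 2583 and 2392 CPM. With 2 libraries such nearness describes level alone.

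Reads on the opposite strand were seen at 1 of the 9 genes. Mir337 had 117 such reads in replicate 1, or 0.893% of its reads on both strands (exact Clopper-Pearson interval 0.739 to 1.07), and 47 in replicate 2, or 0.806% (0.593 to 1.07). The shares agreed within these intervals. The remaining 8 genes had 0 opposite reads in both libraries, and 20 of the 454 tested genes had more than 3 in at least 1 library. M21 places the gene Mir3544 on the minus strand across Mir337, at chr12:109585813-109585873, and Mir3544 was not among the counted genes. Its mature strands are shown because they lie across those of Mir337, with the seed in capitals.
miR-3544-3p: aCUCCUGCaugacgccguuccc
miR-3544-5p: aGAAAGGCaucauauaggagcug

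The 3p strand overlaps the site of miR-337-5p by 17 bases, and the 5p strand overlaps that of miR-337-3p by 21 bases. The counts do not give the positions of the reads, so whether they end where these strands do was not tested.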

How the data were processed

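Short RNA, under 30 nucleotides per the labels, was sequenced from 2 liver libraries. The authors deposited raw counts of reads per microRNA gene, in 3 columns that the values show to be reads on either strand, on the strand of the gene and on the opposite strand. Per the deposited descriptions of the files, the assembly was mm10 and the annotation GENCODE M4; the aligner, counter and trimming are not given in the sources used here. The 4 summary classes (73.8% and 71.0% of reads in replicates 1 and 2) name no gene and entered neither library sizes nor tests.

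The members, lists and tests were chosen with earlier results of these data known. Named genes were the 9 members, positional neighbours, the leading gene of each neighbouring group, genes sharing a seed, and the 2 nearest in level to each of the 2 most abundant members. Names and positions came from GENCODE M21 by Ensembl identifier without version (1894 of 1973 matched); Mir337 and Mir540 carry a later version there. CPM was computed from the strand-of-gene column. Genes with at least 10 summed counts were tested, with 0.5 added to each count for log2 ratios. A replicated test had no groups to compare. Alternatives changed the column, denominator, filter, pseudocount, scaling and test. The test was run on simulated counts that held counting noise only. Such counts cannot show how it behaves when libraries vary by more than that. Tools were edgeR 4.0.16 (TMM, exact test), DESeq2 1.42.0 (size factors), scipy 1.17.1 (binomial test), pandas 2.3.3, numpy 2.4.6, matplotlib 3.10.9, Python 3.11.15 and R 4.3.3.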

Additional observations from a re-analysis of the deposited data

Results flagged for a closer look

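Reads on the strand opposite to Mir337, which lie outside the counts used for levels, exceeded the limit of 3 that a count of 0 allows. There were 117 in replicate 1 and 47 in replicate 2, against 12978 and 5786 on the strand of the gene. The part of Mir3544, which lies across Mir337, in these reads was not tested.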

How the results depend on the processing

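The share of the 9 genes in assigned counts, 1.54%, was 1.40% with reads of either strand, 1.65% without the most abundant gene, 0.425% of all reads of the library, and 1.26% without Mir341, an alternative chosen after seeing the data. From a single library it ran from 1.48 to 1.60%. The median level, 1816 CPM, was 1648 CPM with reads of either strand, by the larger total, and ran from 1703 to 1929 CPM from a single library. All 9 genes were detected under each alternative except a minimum of 100 counts, which left 8. None of the members tested was called under any of the 7 alternatives to the test (8 were tested with at least 100 summed counts, 9 otherwise), while the count over all genes, 33, was 15 with at least 100 summed counts, where fewer genes were tested, and 1 with edgeR's exact test. The log2 ratio of Mir493, -0.01, turned to 0.0496 with libraries scaled by total counts, where Mir673 also lost and Mir337 gained an adjusted p under 0.05; the other directions of the 9 genes held under the alternatives run. The difference between libraries has no value without either of them. With a single group there were no replicate pairs to block on. Depth limits Mir3070a most, with 59 and 32 counts.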

Other observations

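Counted genes that lie beside the 9 but belong to none of the named groups were low. Mir1188, 226 bases past Mir341 inside Rian, had 64 counts or 19.1 CPM in replicate 1 and 49 counts or 30.9 CPM in replicate 2. Gm23912, 57 bases before Mir370, had 2 counts in replicate 1 and 1 in replicate 2, and Mir1906-1, inside Meg3 and 19.1 kb before Mir770, had 0 in both. The neighbours Mir341 and Mir1188 averaged 2792 ± 1172 CPM and 25.03 ± 8.34 CPM (SD, n = 2).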
